A study of Homo sapiens with 6 samples.

Results

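Fibrinogen is the soluble plasma protein that thrombin turns into fibrin, the mesh of a blood clot. It is made mainly by hepatocytes from an α, a β and a γ chain, which the genes FGA, FGB and FGG encode side by side, and the chains are joined by disulfide bonds in the endoplasmic reticulum before secretion. FGL1 (fibrinogen-like 1, or hepassocin) encodes a liver protein with the globular domain of the β and γ chains, does not form clots, and is known as a ligand of the T cell receptor LAG3. In liver cells, transcription of the fibrinogen genes rests on the hepatocyte factor HNF1 and on C/EBP factors, and interleukin-6 raises it through STAT3 during the acute phase response.

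The 4 genes were taken by name from the 26184 genes and loci of the deposited table. They had been chosen by their counts in the contrast between the lines, so their levels and fold changes are given as a description, without a test. The study compared Huh7 P, the parental human hepatocellular carcinoma line without treatment, with Huh7 LR, derived from it by continuous exposure to lenvatinib, an inhibitor of several receptor tyrosine kinases, at 1 to 20 μM for 10 months. Each line gave 3 samples of RNA, grown in medium with serum. Huh7 LR is a single derived line, and the study's methods say that it was afterwards kept under 20 μM of the drug. Whether the plates used for RNA held lenvatinib is not stated separately, and resistance, the drug itself and separate culture cannot be told apart. The labels describe all samples as wild type, although their extraction text speaks of an insect, and the counts fall on human genes.

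Between 62738937 and 71427573 reads were counted on genes per library, and a count of 0 allows up to 3 counts, 0.042 to 0.049 CPM (read counts scaled to library size by edgeR's TMM method), which covers counting error only. All 8 hepatocyte markers examined were present, with ALB at a mean of 12951 CPM in Huh7 P and 21566 CPM in Huh7 LR. Markers of other cells stayed low but moved with the lines. The 6 fibroblast markers summed to 2.16 to 2.28 CPM in Huh7 P and 5.02 to 8.02 CPM in Huh7 LR, the 6 platelet markers to 3.27 to 4.63 and 5.08 to 7.23 CPM, and the 6 endothelial markers to 38.8 to 47.5 and 65.1 to 71.2 CPM, nearly all of it PECAM1. The 6 leukocyte markers summed to 67.0 to 74.3 CPM in Huh7 P and 46.7 to 53.3 CPM in Huh7 LR, mostly CD68. DCN, CDH5, KDR, ERG, PF4 and TYROBP were at 0 in every library. The part of these cells in the results below was not tested.

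FGA, FGB and FGG lie within one stretch of chromosome 4 (GRCh38). FGB (ENSG00000171564) runs from 154562956 to 154571086 on the plus strand. FGA (ENSG00000171560, 154583126 to 154590766) and FGG (ENSG00000171557, 154604134 to 154612967) are on the minus strand. None of the chain genes shares exon sequence with another annotated gene on either strand, so their reads are not divided among overlapping genes.

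The sequences before the chain genes are shown because the 3 genes moved together between the lines and are known to answer to HNF1 and interleukin-6. They come from RefSeq (GRCh38.p14), which matched 3 of the 4 genes, and are read 5′ to 3′ on the gene's own strand. Capitals mark matches to GTTAAT, a half-site of HNF1, or to CTGGGAA, the core of the interleukin-6 response element, on either strand. For FGA and FGB the stretch from 250 to 25 bases before the RefSeq start is printed, since the bases after it are exonic in GENCODE 29. For FGG, whose whole window is exonic in one or another transcript, 29 bases around the match are printed.
FGA, chr4:154590767-154590992, minus strand: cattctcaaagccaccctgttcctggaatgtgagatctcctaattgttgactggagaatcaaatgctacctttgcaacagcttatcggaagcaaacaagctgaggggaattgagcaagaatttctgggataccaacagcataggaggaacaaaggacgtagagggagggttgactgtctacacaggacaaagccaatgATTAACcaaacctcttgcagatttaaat
FGB, chr4:154562730-154562955, plus strand: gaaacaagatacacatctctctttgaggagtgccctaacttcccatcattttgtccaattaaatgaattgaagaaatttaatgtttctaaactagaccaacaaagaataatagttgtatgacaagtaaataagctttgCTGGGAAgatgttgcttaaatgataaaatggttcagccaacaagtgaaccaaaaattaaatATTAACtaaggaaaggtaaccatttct
FGG, chr4:154612800-154612828, minus strand: gtgtgcaaaatCTGGGAAcctgacagtat

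The HNF1 half-site matched in FGA and FGB on the reverse strand, at nearly the same place, beginning 52 and 51 bases before the start. The interleukin-6 element matched in FGB, 112 bases before the start, and in FGG, 161 bases before it. Over 250 bases, 6.23% of 35116 annotated promoters held GTTAAT and 9.15% held CTGGGAA. The C/EBP half-site TGCAAT (7.03% of promoters) and the TATA box, TATAAA (10.7%), matched in none of the 3 windows. These motifs do not overlap each other in the windows shown. RefSeq gives FGB a further start, and the window before it held the same 2 matches. A match of letters does not show that a factor binds there, and a missing match says only that these letters are not in the window.

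**Figure D1:**
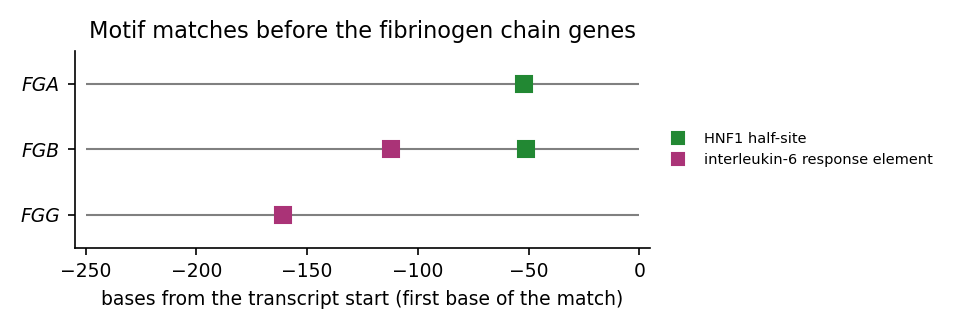
Positions of motif matches in the 250 bases before the RefSeq start of FGA, FGB and FGG (x axis, bases from the start), with green squares for the HNF1 half-site and purple squares for the interleukin-6 element. The HNF1 half-site lies 52 bases before FGA and 51 before FGB, and the interleukin-6 element 112 bases before FGB and 161 before FGG.

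FGA encodes the α chain, from which thrombin first releases a fibrinopeptide. In FPKM (fragments scaled to transcript length and library size by the authors, which allows levels of different genes to be compared), it stood at 37.7, 42.7 and 41.6 in the Huh7 P libraries and at 395, 527 and 516 in the Huh7 LR libraries. The lowest Huh7 LR library was far above the highest Huh7 P library, and the lines did not overlap, as for 55.9% of all genes and loci tested. The means were 40.7 ± 2.63 FPKM (SD, n = 3) and 479 ± 73.5 FPKM (SD, n = 3), 11.8-fold apart. FGA was the highest of the 4 genes in fold change and the lowest chain in Huh7 P. In RNA from whole cultures, a change in the number of cells that express a gene and a change in RNA per cell cannot be told apart. Behind these values stood 7139 to 7553 reads in Huh7 P and 65783 to 96466 in Huh7 LR.

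FGB encodes the β chain, from which thrombin releases a further fibrinopeptide. Its levels were 72.3, 86.4 and 85.5 FPKM in Huh7 P and 395, 492 and 512 FPKM in Huh7 LR, with means of 81.4 ± 7.88 FPKM (SD, n = 3) and 466 ± 62.4 FPKM (SD, n = 3), a 5.73-fold difference. The libraries of the lines did not overlap, and replicate 1 was the lowest library of each line.

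FGG encodes the γ chain, which carries a binding site for platelet integrin. It stood at 85.2, 108 and 113 FPKM in Huh7 P and at 479, 567 and 622 FPKM in Huh7 LR, with means of 102 ± 15.0 FPKM (SD, n = 3) and 556 ± 72.2 FPKM (SD, n = 3), a 5.44-fold difference. FGG was the most abundant chain in each of the 6 libraries.

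FGL1 (ENSG00000104760) lies apart from the chains, on chromosome 8 from 17864380 to 17910365 on the minus strand (GRCh38), and was of much lower abundance. It overlaps exons of 1 gene on the opposite strand, AC087273.1, and without strand information reads of the pair cannot be told apart. Its levels were 3.54, 3.81 and 4.26 FPKM in Huh7 P and 14.7, 9.01 and 10.4 FPKM in Huh7 LR, from 357 to 411 and from 924 to 1401 reads. The means were 3.87 ± 0.362 FPKM (SD, n = 3) and 11.4 ± 2.97 FPKM (SD, n = 3), a 2.93-fold difference. The lines did not overlap here either, although the Huh7 LR libraries spread widely, with a coefficient of variation of 26.1% against 15.3% or less for the chains.

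**Figure D2:**
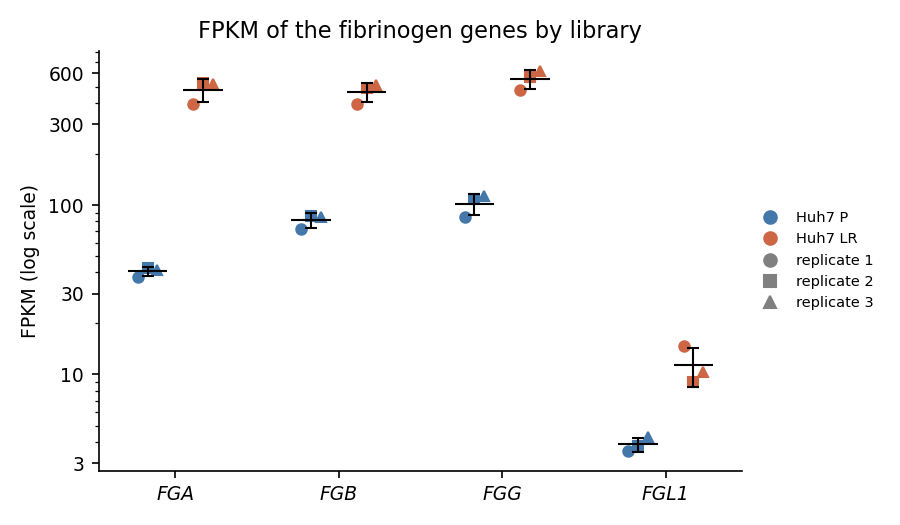
FPKM (y axis, log scale) of FGA, FGB, FGG and FGL1 in each of the 3 Huh7 P (blue) and 3 Huh7 LR (orange) libraries, with replicates as circle, square and triangle and black bars for mean and SD. For each gene the 3 Huh7 LR libraries lie above the 3 Huh7 P libraries, by the widest gap for FGA, and FGL1 lies far below the chains in both lines.

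The log2 fold change of Huh7 LR against Huh7 P (log2 FC), from edgeR's fit to the counts of all genes, was 3.48 (standard error 0.12) for FGA, 2.49 (standard error 0.12) for FGB, 2.42 (standard error 0.12) for FGG and 1.53 (standard error 0.17) for FGL1. Among the 14053 annotated genes tested, ranked from the largest rise, these stood at 68, 185, 202 and 563. A gene was called when it changed more than 2-fold at an adjusted p under 0.001, which 4.43% of the 17531 genes and loci tested did in the upward direction and 1.78% in the downward one. All 4 genes differed by more than 2-fold upward, and all 3 Huh7 LR libraries lay above all 3 Huh7 P libraries, as in 28.2% of all genes and loci. Both counts follow from picking the genes on this contrast, so they are a description and nothing is read from them.

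By mean FPKM among the 19974 annotated genes listed, FGG moved from rank 527 in Huh7 P to rank 78 in Huh7 LR, FGB from 691 to 97, FGA from 1597 to 92 and FGL1 from 8726 to 5272. FGA, FGB and FGG together took 0.0462% ± 0.00485 (SD, n = 3) of all counts in Huh7 P and 0.323% ± 0.0402 (SD, n = 3) in Huh7 LR. The shares ranged from 0.0406% to 0.0492% and from 0.276% to 0.350%. Each chain was thus among the most abundant annotated genes of Huh7 LR, and FGA moved up the furthest of the chains.

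The order of the chains per length differed between the lines. In Huh7 P, FGG exceeded FGB and FGB exceeded FGA in every library, FGA being the rarest chain. In Huh7 LR, FGG was again the highest, while FGA and FGB lay within their spread of each other. Of the summed FPKM of the chains, FGA gave 19.3%, 18.0% and 17.3% in the libraries of Huh7 P but 31.1%, 33.3% and 31.3% in those of Huh7 LR. The share of FGB was 35.6% to 37.0% in Huh7 P and 31.0% to 31.1% in Huh7 LR, and that of FGG 43.6% to 47.1% and 35.8% to 37.8%. The shares were closer to even in Huh7 LR. Within a library they add up to the whole, so a larger share of FGA goes with smaller shares of the other chains. They come from the counts on which the genes were picked and are a description only.

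**Figure D3:**
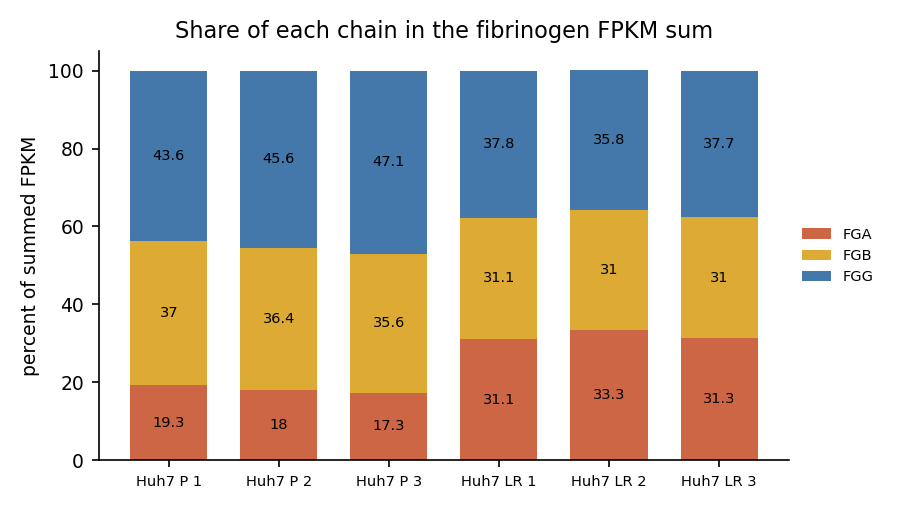
Percent of the summed FPKM of the 3 chains (y axis) given by FGA (orange), FGB (yellow) and FGG (blue) in each library. FGA takes 17.3% to 19.3% in Huh7 P and 31.1% to 33.3% in Huh7 LR, while FGB holds 31.0% to 31.1% in Huh7 LR.

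The ratio of FGA to FGB within a library was 0.521, 0.494 and 0.487 in Huh7 P, against 1.00, 1.07 and 1.01 in Huh7 LR, a log2 difference between the lines of 1.04. The ratio of FGA to FGG was 0.401 ± 0.038 (SD, n = 3) in Huh7 P and 0.861 ± 0.0597 (SD, n = 3) in Huh7 LR, a log2 difference of 1.10. Neither ratio overlapped between the lines. How often ratios of other gene pairs do so was not computed, so this is a description only. In contrast, the ratio of FGB to FGG was 0.800 ± 0.047 (SD, n = 3) in Huh7 P and 0.838 ± 0.0251 (SD, n = 3) in Huh7 LR. Its libraries overlapped, from 0.755 to 0.849 and from 0.822 to 0.867, and its log2 difference of 0.07 was smaller than the spread between replicates. From CPM instead of FPKM the 3 log2 differences were 0.99, 1.05 and 0.06. FPKM per count, relative to the median of 11363 annotated genes, ranged over the 6 libraries from 1.22 to 1.28 for FGA, 1.55 to 1.56 for FGB, 1.82 to 1.95 for FGG and 2.21 to 2.28 for FGL1, so the authors' length scaling of these genes was nearly the same in all libraries.

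The chains shared their lowest library within each line, on the log2 CPM scale. In Huh7 P, replicate 1 was the lowest library for FGA, FGB and FGG, by 0.14, 0.18 and 0.27 below the line's mean, and also for FGL1, by 0.14. In Huh7 LR, replicate 1 was again the lowest for the chains, by 0.28, 0.24 and 0.19, and FGL1 went the other way, 0.40 above its mean there and 0.31 below it in replicate 2. With 3 libraries per line these deviations are given as values only. Without Huh7 LR replicate 1 the log2 FC of FGL1 was 1.31, and that of FGA was 3.61.

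The genes beside the chain cluster did not share one direction. Of 10 listed genes within 1 Mb on either side, 3 had enough counts to test. All 3 lie on the FGB side. PLRG1, a splicing factor subunit 12.5 kb away, averaged 56.8 CPM in Huh7 P and 47.4 CPM in Huh7 LR, with SDs of 4.93 and 3.68. Its log2 FC of -0.26 passed in edgeR's quasi-likelihood test (adjusted p = 0.0294) but was lost in 7 of 15 alternatives, over which the adjusted p ranged from 0.0102 to 0.117. DCHS2, a large cadherin 67.4 kb away, rose from 0.135 to 0.860 CPM (log2 FC 2.62 with a standard error of 0.65, edgeR adjusted p = 0.00665). Its Huh7 P level was near the floor (SD 0.126 CPM), and the log2 FC was 3.43 without Huh7 P replicate 1, 2.08 without Huh7 P replicate 2 and 0.45 on log2(FPKM + 0.1), a scale that understates changes of low genes. TMEM131L, 926 kb away and named after its values were seen, had a log2 FC of 0.42 (edgeR adjusted p = 0.00222). LRAT, 14.0 kb from FGG on the other side, had no count in any library. Of the 3 genes, 2 were higher and 1 was lower, against 23.3% higher and 22.4% lower at edgeR's adjusted p below 0.05 over all genes and loci tested. The 2-fold call was passed by 0 of the 3 and, within 2 Mb, by 1 of 11 tested, CTSO (log2 FC 1.25, named after its values were seen), against 4.43% upward and 1.78% downward of all.

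Around FGL1, 13 of 14 listed genes within 1 Mb were tested, of which 3 were higher and 5 lower at edgeR's adjusted p below 0.05 (against 23.3% and 22.4% of all genes and loci tested), with a median log2 FC of -0.01. On one side, MTUS1, a microtubule-associated protein, averaged 309 CPM in Huh7 P and 313 CPM in Huh7 LR, with SDs of 8.11 and 42.2, and PDGFRL beyond it rose by 1.01 on the log2 scale (adjusted p = 6.58e-05 from edgeR's test). On the other side, PCM1, a centriolar satellite protein 12.5 kb away, fell by 0.58 on the log2 scale (adjusted p = 0.000212 from edgeR's test), and ASAH1, the acid ceramidase, had a log2 FC of 0.77 (adjusted p = 2.08e-05 from edgeR's test). The log2 FC values of the 13 neighbours ranged from -0.68 to 1.01, and no comparison with FGL1 is drawn, since it was picked on this contrast.

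**Figure D4:**
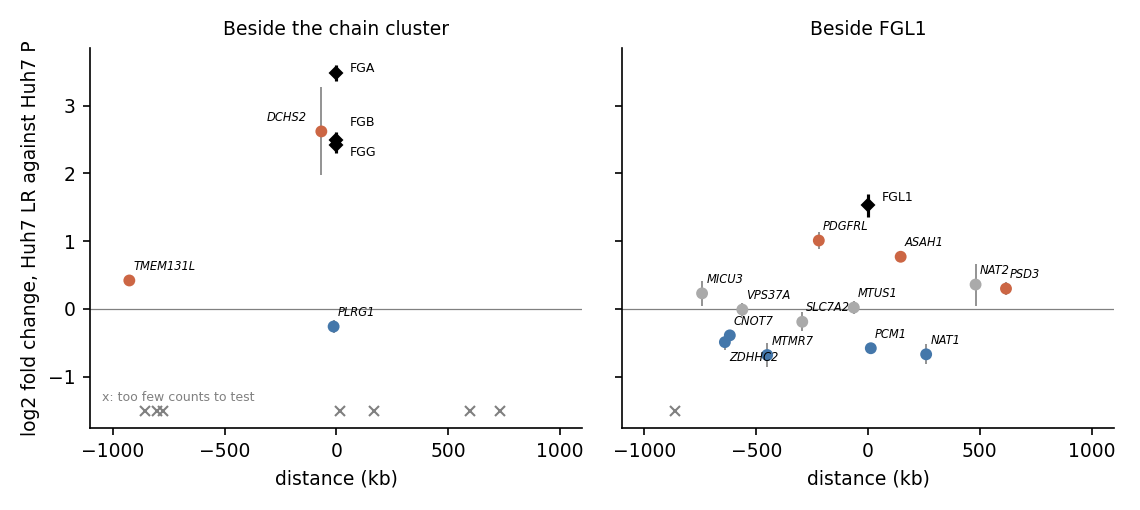
Log2 FC with standard error (y axis) of genes within 1 Mb of the chain cluster (left) and of FGL1 (right), against the distance in kb from the nearest edge of the cluster or gene (x axis). Black diamonds are the fibrinogen genes, orange and blue points genes higher or lower at edgeR's adjusted p below 0.05, grey points genes that did not pass, and crosses genes with too few counts to test, placed at an arbitrary height. PLRG1 and PCM1, each 12.5 kb away, have log2 FC values of -0.26 and -0.58.

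Of 20 tested transcription factors known to act on the fibrinogen promoters or in liver, 10 were higher and 3 lower at edgeR's adjusted p below 0.05 (23.3% and 22.4% over everything tested), with a median log2 FC of 0.25 against 0.00 over all genes and loci, and 1 of them passed the 2-fold call upward (4.43% of all). HNF4A had a log2 FC of -0.06 (standard error 0.09) on counts and 0.37 on log2(FPKM + 0.1), and passed on neither. Among the C/EBP factors, CEBPA rose from 308 to 461 CPM (log2 FC 0.58, adjusted p = 5.55e-05) and CEBPD from 10.1 to 19.9 CPM (0.98, adjusted p = 3.2e-05). CEBPB had a log2 FC of 0.25 (adjusted p = 0.17). Without Huh7 LR replicate 1 the value for CEBPB was 0.09, and without Huh7 LR replicate 2 it was 0.39 and passed (edgeR adjusted p = 0.027). The glucocorticoid receptor gene NR3C1 had a log2 FC of 0.46 (adjusted p = 0.00401) and the bile acid receptor gene NR1H4 one of -0.20 (adjusted p = 0.104), or -0.27 without Huh7 LR replicate 1 (edgeR adjusted p = 0.0243). DBP, a circadian factor that binds sites like those of C/EBP, was the one past 2-fold, with 1.14 (adjusted p = 2.64e-05). CTCF, an insulator protein, fell by 0.33 on the log2 scale (adjusted p = 0.0087). These adjusted p-values are from edgeR.

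In the interleukin-6 route, 6 of 17 genes tested were higher and 3 lower, against 23.3% and 22.4% of all genes and loci tested, with a median log2 FC of 0.12. STAT3, which carries the signal to the fibrinogen promoters, rose from 90.3 CPM (SD 4.48) in Huh7 P to 168 CPM (SD 2.78) in Huh7 LR, with a log2 FC of 0.89 (adjusted p = 2.89e-06 from edgeR's test). The receptor gene IL6R rose by 0.36 on the log2 scale (adjusted p = 0.00248), whereas its partner IL6ST had a log2 FC of 0.12 (adjusted p = 0.329), or 0.24 without Huh7 LR replicate 2 (edgeR adjusted p = 0.008). SOCS3, a feedback target of STAT3, had a log2 FC of 0.54 at 2.26 CPM in Huh7 P (edgeR adjusted p = 0.0357), lost in 7 of 15 alternatives (adjusted p over all of them 0.00585 to 0.121). SOCS1, a feedback gene of the same family, had a log2 FC of -1.28 at 1.04 CPM in Huh7 P (edgeR adjusted p = 0.0249), lost without Huh7 P replicate 2 or 3 and in unfiltered limma-trend (adjusted p over all alternatives run 0.0174 to 0.0826). PIM1, a kinase gene that STAT3 induces, rose by 1.06 on the log2 scale (edgeR adjusted p = 2.76e-05) and was the only 2-fold call of the list (4.43% of all upward). LIF, a related cytokine, fell by 1.09 on the log2 scale (edgeR adjusted p = 0.00161). On log2(FPKM + 1) the values were 0.27 for SOCS3 and -0.38 for LIF. IL6 itself averaged 0.0162 CPM in Huh7 P and 0.116 CPM in Huh7 LR, too few counts to test.

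Of 18 positive acute phase genes tested, most of which inflammation raises in liver, 7 were higher, 4 lower and 7 did not pass (median log2 FC 0.60, background 23.3% higher and 22.4% lower). CRP averaged 0.0348 and 0.168 CPM, too few to test, and SAA1 0.178 and 0.171 CPM (adjusted p = 0.958). SAA4, which is counted in this list although it encodes a constitutive serum amyloid protein, rose from 0.234 to 4.49 CPM (log2 FC 4.24, adjusted p = 1.35e-05). The heme carrier HPX rose by 1.49 and the hemoglobin carrier HP by 0.67 on the log2 scale (adjusted p = 1.74e-06 and 1.31e-04), while the protease inhibitor SERPINA3 fell by 1.07 and the copper carrier CP by 1.08 (adjusted p = 4.83e-04 and 0.00234). Of 12 negative acute phase genes, which inflammation lowers, 9 were higher and 1 lower (median log2 FC 0.63, same background). They included ALB (0.74), the thyroid hormone carriers TTR (0.68) and SERPINA7 (2.97), and AHSG (1.73), and ITIH2 was the lower one (-0.40). On log2(FPKM + 1) the differences were 2.29 for SAA4, 1.11 for SERPINA7 and -0.70 for SERPINA3. All these p-values are edgeR's, adjusted over all genes tested.

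Among 16 tested genes of clot formation and removal, 8 were higher and 3 lower (median log2 FC 0.28), against 23.3% and 22.4% of all genes and loci tested, and 4 and 1 of them passed the 2-fold call (4.43% and 1.78% of all). F2, which encodes prothrombin, the precursor of the enzyme that cleaves fibrinogen, fell from 350 CPM (SD 3.72) in Huh7 P to 278 CPM (SD 10.8) in Huh7 LR, with a log2 FC of -0.33 (edgeR adjusted p = 0.00162). The catalytic subunit of the fibrin cross-linking factor, F13A1, had no count in any library. F13B, its carrier subunit, rose from 0.543 to 3.60 CPM (log2 FC 2.73, edgeR adjusted p = 1.89e-05). PLG, the precursor of plasmin, which dissolves fibrin, rose from 6.06 to 16.9 CPM (1.48, edgeR adjusted p = 3.34e-05), and so did PLAU, a plasminogen activator (1.64, edgeR adjusted p = 5.52e-06). The receptor of the latter, PLAUR, fell by 1.32 on the log2 scale (edgeR adjusted p = 3.26e-04). On log2(FPKM + 1) the values were 1.04 for F13B and -0.64 for PLAUR.

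Of 19 tested genes that fold, modify and export secreted proteins such as the chains, 4 were higher and 5 lower (median log2 FC -0.03), close to the background of 23.3% and 22.4%. The 2-fold call was passed by 0 of them, against 4.43% upward and 1.78% downward of all. The chaperone gene HSP90B1 fell from 1157 to 717 CPM (log2 FC -0.69, edgeR adjusted p = 2.49e-05) and CANX, the gene of calnexin, from 912 to 656 CPM (-0.48, edgeR adjusted p = 1.72e-04). HSPA5, the gene of BiP, had a log2 FC of -0.31 (edgeR adjusted p = 0.0445), lost in 8 of 15 alternatives (adjusted p over all of them 0.00492 to 0.142), and the cargo receptor gene LMAN1 one of -0.18 (edgeR adjusted p = 0.242). The value for LMAN1 was -0.31 without Huh7 LR replicate 1, where it passed (edgeR adjusted p = 0.0287), and -0.03 without Huh7 LR replicate 2. TPST1, which sulfates tyrosines of secreted proteins, rose by 0.55 on the log2 scale (edgeR adjusted p = 5.02e-04).

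Of 10 tested receptor genes for fibrinogen or FGL1, 3 were higher and 1 lower (median log2 FC 0.09, background 23.3% and 22.4%). ITGB3, the β subunit of the platelet and vitronectin integrins, rose by 1.08 on the log2 scale and the syndecan SDC4 by 0.70 (edgeR adjusted p = 5.92e-05 and 1.61e-05). ITGAM, a leukocyte integrin subunit, fell by 1.81 (edgeR adjusted p = 2.49e-05). LAG3 averaged 1.31 CPM in Huh7 P and 1.39 CPM in Huh7 LR (edgeR adjusted p = 0.808). The other genes with a fibrinogen-like globular domain were mostly silent, and 7 of 20 had enough counts to test, with 3 higher and 2 lower against the same background. The lipase inhibitor ANGPTL4 rose from 2.42 to 9.55 CPM (log2 FC 1.98, edgeR adjusted p = 2.51e-06), and ANGPTL2 fell from 2.29 to 0.151 CPM (-3.90, edgeR adjusted p = 4.09e-06). ANGPT1, an angiopoietin, fell by 0.51 (edgeR adjusted p = 0.0082). ANGPTL2 was at -2.29 on log2(FPKM + 0.1) and -0.59 on log2(FPKM + 1), and ITGAM at -0.59 on the latter. FGL2, a further fibrinogen-like gene, had 0 counts in Huh7 P and at most 3 in a Huh7 LR library.

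**Figure D5:**
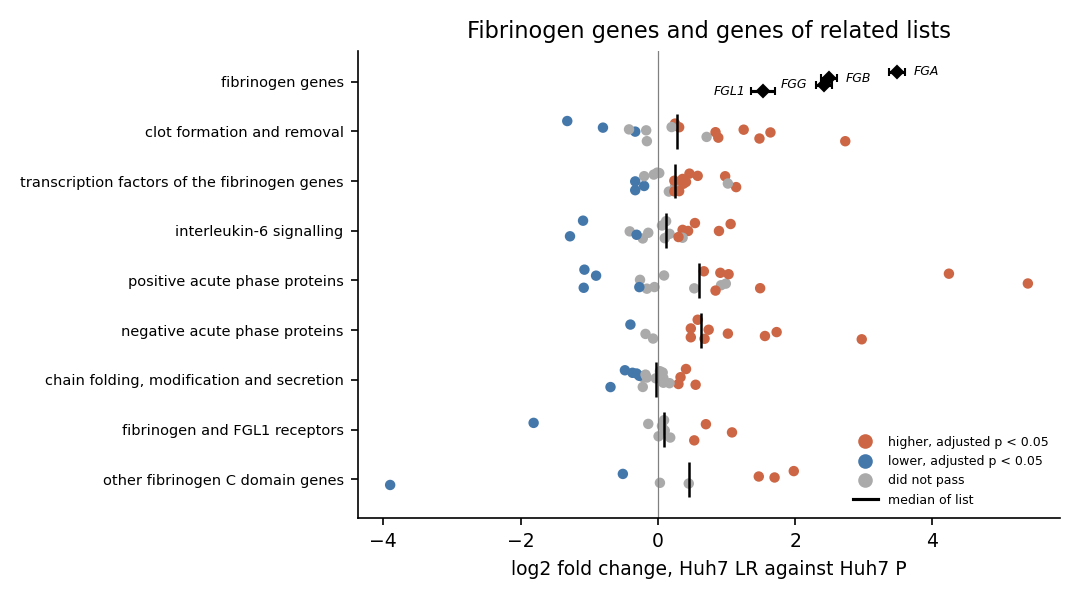
Log2 FC (x axis) of the fibrinogen genes (black diamonds with standard errors) and of the tested members of 8 related lists (1 point per gene), with orange and blue points for genes higher or lower in edgeR's test (adjusted p under 0.05) and black lines for list medians. FGA, FGB, FGG and FGL1 lie at 3.48, 2.49, 2.42 and 1.53. The list medians lie between -0.03 and 0.63, and no comparison is drawn, since the fibrinogen genes were picked on this contrast. The rightmost point is APCS, which had 2 counts or fewer in each Huh7 P library, so that its fitted fold change is not well defined.

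The genes whose log2 CPM, centred over the 6 libraries, was closest to the mean profile of FGA, FGB and FGG were sought among 9653 annotated genes that reached 10 CPM in either line. They were TMPRSS6, a liver serine protease, with a root mean square difference of 0.10, CA4, a carbonic anhydrase, with 0.12, FOLH1, a carboxypeptidase, with 0.13, MVB12B, an endosomal sorting subunit, with 0.13, and ERP27, a protein of the endoplasmic reticulum, with 0.15. Their log2 FC values ran from 2.56 to 3.06. For FGL1 the closest included ANO1, a chloride channel (0.096), ACSS3 (0.11), PLG (0.13) and the apolipoprotein APOA2 (0.13). TMPRSS6, CA4, MVB12B, ERP27, ANO1 and PLG reached 10 CPM only in Huh7 LR. The profiles matched are set by the contrast on which the fibrinogen genes were picked, so the likeness is built in and is given as a description only.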

How the data were processed

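RNA from 3 Huh7 P and 3 Huh7 LR samples was sequenced from poly(A) libraries. The authors deposited, for each gene or locus and library, whole-number read counts without normalization and FPKM values scaled for length and library size. The submitters' processing notes name TopHat2, Cufflinks, DESeq and the mouse build mm10, although all 19974 gene identifiers are human and present in GENCODE 29 (GRCh38), whose coordinates are used. Annotation and strand settings are not given in the sources used here. Fragments of lines that name no gene (34) were left out, and 2.86% to 3.35% of counts fell on 6210 loci outside annotated genes.

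Counts were tested with edgeR 4.0.16 in R 4.3.3 (filterByExpr with minimum count 10 and total 15, TMM, quasi-likelihood test, Benjamini-Hochberg over 17531 genes and loci). Standard errors were derived from the F statistic. A difference required an adjusted p under 0.05, a call also more than 2-fold and an adjusted p under 0.001. The study calls the 3 samples of a line independent, and p-values measure the spread between these samples of 1 line each, which may be technical. The 4 genes, the lists and the named genes (fixed genes plus, per list, the largest and smallest changes that passed, with some left out) were chosen with earlier results of these data known. Alternatives were DESeq2 1.42.0, other scalings and filters, limma-trend (limma 3.58.1) on log2(FPKM + 0.1) and log2(FPKM + 1), a replicate block and each library left out. Some genes that the rule names are not reported here. Tests were tested on simulated data. Figures used matplotlib 3.10.9.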

Additional observations from a re-analysis of the deposited data

How the results depend on the processing

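Under 15 alternatives the log2 fold change stayed between 3.41 and 3.61 for FGA, 2.40 and 2.6 for FGB, 2.29 and 2.51 for FGG and 1.31 and 1.68 for FGL1. Calls numbered 268 upward and 84 downward with log2(FPKM + 1) in limma-trend, and 353 and 120 with log2(FPKM + 0.1) unfiltered, against 776 and 312 from counts. With each library left out, 551 to 734 were called higher and 224 to 341 lower. A window of 0.5 Mb around the chain cluster held 1 higher and 1 lower gene of 2 tested, and one of 2 Mb held 6 higher and 3 lower of 11. Around FGL1, a window of 0.5 Mb held 2 higher and 3 lower genes of 8, and one of 2 Mb held 3 higher and 6 lower of 17. Over all genes and loci 23.3% were higher and 22.4% lower. Same-numbered samples of the 2 lines deviated together only weakly (correlations 0.029, 0.031 and 0.032), each the highest for its number, and nothing else pairs them. With the replicate block, 783 genes and loci were called higher and 316 lower, and 51 and 23 of 119 list members tested were higher and lower, against 50 and 22 without it, and no named gene changed its side of the threshold. Of 49 genes named from lists or neighbourhoods, 37 kept their direction and side of the threshold in all alternatives run. The differences of PLRG1, HSPA5, SOCS1 and SOCS3 at adjusted p under 0.05 were lost in some limma-trend fits, that of SOCS3 also with DESeq2. Without 1 library they were lost for PLRG1 (Huh7 P replicate 2 or 3, Huh7 LR replicate 1 or 3), HSPA5 (any but Huh7 LR replicate 2, with -0.18 without Huh7 LR replicate 1), SOCS1 (Huh7 P replicate 2 or 3) and SOCS3 (any but Huh7 LR replicate 1). CEBPB and IL6ST passed without Huh7 LR replicate 2, and LMAN1 and NR1H4 without Huh7 LR replicate 1. Among named genes, directions changed only for 4 that did not pass. With each library left out, HNF4A ranged from -0.11 to 0.02 on the log2 scale, LAG3 from -0.09 to 0.28, MTUS1 from -0.05 to 0.13 and SAA1 from -0.46 to 0.59. In all 3 limma-trend fits HNF4A was 0.37 and MTUS1 -0.04. SAA1 was 0.00 with the replicate block and 0.05 in unfiltered limma-trend. The causes were not tested.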
